A study of Rattus norvegicus with 48 samples.

Results

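The effect of a run to exhaustion on gene expression was examined in a muscle of old LCR rats, with 6 arrays from exhausted rats and 6 from rats at rest. These 12 arrays were chosen by their labels out of 48 Affymetrix Rat Gene ST 2.1 arrays of rat extensor digitorum longus, a shin muscle made mainly of fast fibres. The other 36 arrays belong to the groups old HCR, young HCR and young LCR, each at rest and exhausted, with 6 arrays per group. HCR and LCR are common short names for rat lines selected over generations for high and low treadmill running capacity. The labels give the line, "old" or "young", and "Rest" or "Exhausted". They state no age in weeks, sex, run time or interval between the run and tissue collection, so that a response may follow a shorter or longer run than in another group. Different animal numbers stand in the titles, and each array is taken as 1 rat, although 2 animal numbers appear for young HCR rest replicate 6. Deposited values are log2 expression levels, and all changes below are exhausted minus rest on that log2 scale.

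Contracting muscle switches on immediate early genes, transcription factors and signalling regulators whose transcription needs no new protein and which are soon shut off again by their own products and by feedback inhibitors. Muscle that has lost its nerve supply, or is kept from moving, runs another programme. It makes acetylcholine receptor subunits outside the synapse under the control of Myog, a transcription factor of muscle development, and raises the ubiquitin ligases that mark contractile proteins for degradation.

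Some arrays differed from the others of their group, and the results below are given with and without them where it matters. Correlations between arrays were 0.968 to 0.973 among the exhausted rats, 0.955 to 0.976 among the rested rats and 0.956 to 0.974 between these groups. Rest replicate 2 had a lower quartile of 3.24 (3.10 to 3.18 in the other 11 arrays) and a mean of 7.29 over 10 liver plasma protein markers (4.06 to 4.87 in the others). Rest replicates 1 and 6 had means of 6.87 and 7.05 over 11 tendon markers, against 5.41 to 6.01 in the other 10 arrays. Skeletal muscle fibre markers had means of 13.1 to 13.2 in all 12 arrays, at the top of the range of values, as muscle tissue should have. None of the 15 marker lists, which cover muscle fibres and other cell types and tissues, had a member past the threshold between exhausted and rested old LCR rats. The 8 neutrophil markers on the array were too dim to be tested.

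Altogether 204 of 9558 genes tested (2.13%) changed after the run at an adjusted p under 0.05 (limma, a model of all 48 arrays, Benjamini-Hochberg). Of these, 70 rose (0.732% of genes tested) and 134 fell (1.4%). The falls were also the larger changes: 59 fell and 19 rose by at least 1.5-fold, and 21 fell and 7 rose by at least 2-fold. The median change over all genes was -0.00, with quartiles of -0.11 and 0.11. In 98 genes (1.03%) the 6 exhausted and 6 rest values did not overlap, 60 with exhausted higher (0.628%) and 38 with exhausted lower (0.398%). With only the 12 old LCR arrays in the fit, which then has to estimate the spread from these alone, 11 genes passed, 9 higher and 2 lower, and 10 of them were among the 204. Without rest replicates 1 and 6 there were 44 calls (26 higher, 18 lower), without rest replicates 2 and 3 there were 495 (84 and 411). Single arrays left out gave between 102 and 361, among them 129 without exhausted replicate 3 and 313, 361, 121 and 102 without rest replicates 2, 3, 5 and 6.

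Rises were led by immediate early genes. Egr1, a zinc finger transcription factor, had levels of 7.69, 7.72, 7.14, 8.24, 6.67 and 6.24 in rest replicates 1 to 6 and of 9.64, 8.76, 9.97, 9.11, 9.21 and 9.04 in exhausted replicates 1 to 6. All exhausted rats lay above all rested rats, a rise of 2.01 ± 0.39 (SE; 4.02-fold, limma adjusted p = 0.00202). Apold1, which vessel lining cells induce early, was at 5.96, 6.07, 6.36, 5.74, 6.13 and 4.84 at rest and at 7.57, 7.18, 8.32, 7.86, 8.06 and 7.58 after the run. Its groups were also separate, with a rise of 1.91 ± 0.34 (3.76-fold, limma adjusted p = 0.000858). Fos, a subunit of the AP-1 transcription factor, was at 6.25, 6.43, 6.19, 7.12, 6.20 and 5.54 at rest and at 8.20, 7.21, 9.51, 8.25, 7.89 and 7.73 after the run. The lowest exhausted rat was close to the highest rested rat, and the rise was 1.84 ± 0.44 (3.59-fold, limma adjusted p = 0.0138). The Fos call was lost without exhausted replicate 3 or rest replicate 6. Nr4a2, an orphan nuclear receptor, was at 6.62, 6.45, 6.54, 5.81, 6.89 and 6.66 at rest and at 8.31, 6.68, 9.45, 8.09, 8.17 and 7.70 after the run. Exhausted replicate 2 lay within the rest range, and the rise was 1.57 ± 0.34 (2.98-fold, limma adjusted p = 0.00724).

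The promoters of Egr1 and Nr4a2 are shown as the 2 largest rises in the immediate early list below with a RefSeq promoter entry. Fos had none. Both genes are known to be induced through serum response factor or CREB. The sites of these factors are the CArG box and the TGACG core of the cyclic AMP response element. The sequences are RefSeq's, from 250 bases before to 50 after the annotated start, written 5′ to 3′ in the direction of the gene, with capitals for CArG boxes and for TGACG on either strand.
Egr1, GRCr8 chr18:26736828-26737127, plus strand: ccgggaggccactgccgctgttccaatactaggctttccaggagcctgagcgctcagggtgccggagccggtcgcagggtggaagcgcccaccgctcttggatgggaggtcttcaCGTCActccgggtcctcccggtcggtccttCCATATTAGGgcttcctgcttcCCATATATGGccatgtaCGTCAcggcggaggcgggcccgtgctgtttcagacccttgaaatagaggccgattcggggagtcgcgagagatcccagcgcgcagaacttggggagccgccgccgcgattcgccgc
Nr4a2, GRCr8 chr3:62104838-62105137, minus strand: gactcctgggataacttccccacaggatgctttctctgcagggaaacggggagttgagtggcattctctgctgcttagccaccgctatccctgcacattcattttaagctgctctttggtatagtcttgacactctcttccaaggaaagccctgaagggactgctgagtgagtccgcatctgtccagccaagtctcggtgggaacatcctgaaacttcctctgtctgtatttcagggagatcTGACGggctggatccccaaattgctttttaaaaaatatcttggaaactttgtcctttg
Egr1 held 2 CArG boxes, at -105 and -83 from the start, and 2 TGACG cores, at -135 and -66. Nr4a2 held 1 such core, at -8, and 0 CArG boxes. No site overlapped another. Over 33469 RefSeq promoters of this length, 1.64% held a CArG box and 21.2% a TGACG core. Among promoters found for the genes tested here the shares were 1.31% and 29.2% of 8349, among the rises 2 (3.7%) and 24 (44.4%) of 54, and among the falls 0 and 38 (31.7%) of 120. These matches describe letters only.

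The next rises were of genes that end or shape these signals. Zfp36, which destabilises mRNAs rich in AU elements, was at 7.70, 7.76, 6.59, 7.52, 7.99 and 7.44 at rest and at 8.67, 8.48, 9.07, 8.42, 8.55 and 8.80 after the run. The groups did not overlap, and the rise was 1.17 ± 0.21 (2.24-fold, limma adjusted p = 0.000858). Dusp1, a phosphatase that inactivates MAP kinases, was at 9.50, 9.62, 9.34, 9.37, 9.10 and 8.62 at rest and at 10.31, 9.86, 10.76, 10.12, 10.75 and 10.42 after the run, again without overlap (1.11 ± 0.18, adjusted p = 0.000643). Ier2, an immediate early gene, was at 5.89, 4.97, 4.98, 6.33, 5.43 and 4.95 at rest and at 6.41, 5.59, 7.08, 6.71, 6.47 and 6.24 after the run. These groups overlapped, the rise was 0.99 ± 0.27 (adjusted p = 0.0351), and leaving out any of 9 single arrays ended the call.

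Tekt1, a tektin of ciliary microtubules, does not belong to these families. It was a dim signal at 4.37, 4.68, 3.83, 2.85, 3.07 and 3.50 at rest and at 5.23, 4.67, 4.29, 4.71, 5.07 and 4.33 after the run. Rest replicates 1 and 2 overlapped with the exhausted rats, and the rise was 1.0 ± 0.22 (2.0-fold, limma adjusted p = 0.00632).

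**Figure D1:**
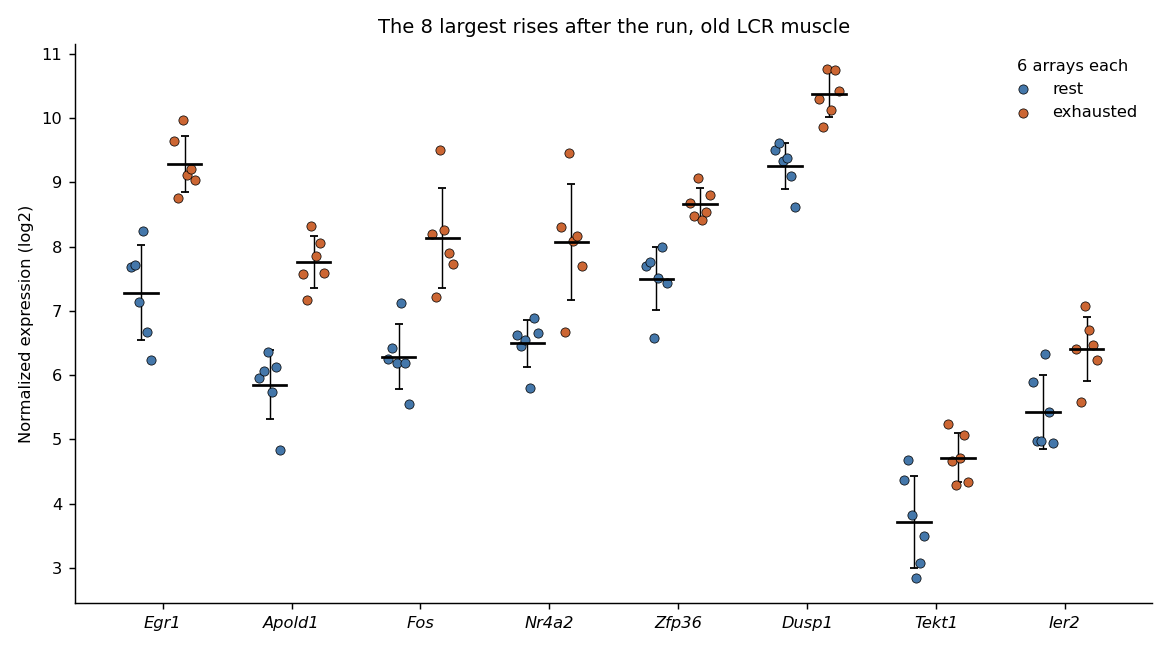
Expression (log2) of the 8 genes with the largest rises in old LCR muscle, with 1 point per array, 6 at rest in blue and 6 exhausted in orange. Horizontal lines are means and bars are SD. Egr1, Apold1, Fos, Zfp36 and Dusp1 show no overlap of the groups, while Nr4a2, Tekt1 and Ier2 do.

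Among 24 tested immediate early transcription factors, 7 rose and 0 fell, with a median change of 0.31 (0.732% of all genes rose). Besides Egr1, Fos, Nr4a2 and Ier2 these were the nuclear receptor Nr4a1 at 0.96 ± 0.18 and the Krüppel-like factors Klf2 at 0.95 ± 0.22 and Klf4 at 0.75 ± 0.19, the last lost without any of 4 single arrays. Several well known members of this family did not pass. Junb, another AP-1 subunit, was at 0.89 ± 0.26 (adjusted p = 0.0513), Fosb at 0.44, Egr2 at 0.38, Atf3 at 0.15, Jun at 0.08 and Myc at -0.02. The median of the same 24 genes was 0.72 in young LCR, 0.44 in old HCR and 1.25 in young HCR.

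Of 27 feedback inhibitors and early effectors of signalling 8 rose and 1 fell (0.732% and 1.4% of all genes), with a median change of 0.24. Sik1, a kinase that restrains CREB coactivators, rose by 0.95 ± 0.27, the activity-regulated gene Arc by 0.86 ± 0.23, Ptgs2, the inducible cyclooxygenase, by 0.76 ± 0.20, the pseudokinase gene Trib1 by 0.67 ± 0.17 and Spry2, an inhibitor of receptor tyrosine kinase signalling, by 0.34 ± 0.10. Arc and Ptgs2 had no overlap between groups: Ptgs2 was between 3.81 and 4.52 at rest and between 4.73 and 5.06 after the run. Ccn1, a matricellular protein gene, was at 0.99 ± 0.29 (adjusted p = 0.0531), with 8.52 ± 0.09 (SD, n = 6) at rest and 9.51 ± 0.44 after the run. It was past the threshold when only the 12 arrays were fitted, as were Apold1, Arc, Dll4, Dusp1, Egr1, Fos, Ptgs2 and Zfp36. The 1 member that fell was Rrad, at -2.57. The calls of Sik1 and Spry2 were lost without any of 9 arrays, those of Arc and Ptgs2 without any of 6 and that of Trib1 without either of 2.

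Few genes of vessels passed. Of 19 tested hypoxia and angiogenesis genes 2 rose and 0 fell (0.732% and 1.4% of all genes), with a median of 0.11. Changes ran from -0.34 to 0.66, and 5 were below 0. Dll4, a Notch ligand of endothelial cells, was at 7.10, 6.83, 6.89, 6.59, 6.69 and 6.74 at rest and at 7.45, 7.23, 7.55, 7.50, 7.38 and 7.68 after the run. No exhausted value lay below a rest value, and the rise was 0.66 ± 0.17 (limma adjusted p = 0.0265). The protease gene Adamts1 rose by 0.44 ± 0.12. These calls were lost without any of 5 (Dll4) or 8 (Adamts1) single arrays. Outside this list, Lmod1, a leiomodin that nucleates actin filaments in smooth muscle, rose by 0.83 ± 0.14 (adjusted p = 0.000643), from 6.64 ± 0.44 (SD, n = 6) to 7.47 ± 0.25. The 8 endothelial markers tested had a median change of 0.21, all above 0 and none past the threshold, with list means of 6.88 to 7.33 at rest and 7.18 to 7.53 after the run. The 7 smooth muscle and pericyte markers had a median of 0.07 and means of 7.98 to 8.32 and of 8.09 to 8.38. The part of these cells in the rises was not tested, and in whole muscle more cells of a type cannot be told apart from more RNA per cell.

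The remaining named rises belong to no one pathway and lay between 0.49 and 0.64. The homeobox gene Emx2 was at 0.64 ± 0.16, Sema7a, a membrane-anchored semaphorin, at 0.59 ± 0.14, Eepd1 at 0.58 ± 0.16 and Cmahp at 0.56 ± 0.15. Dzip1l, a gene of primary cilia, was at 0.51 ± 0.14, Podxl2, a sialomucin gene, at 0.50 ± 0.09, Rpph1, the RNA of ribonuclease P, at 0.49 ± 0.12 and the secreted protein gene Wfdc1 at 0.49 ± 0.13. Emx2, Podxl2 and Rpph1 showed no overlap between the groups. No single array left out ended the calls of Sema7a and Podxl2, while 3 did for Emx2 and Rpph1 and 5 to 7 for the other 4. Rpph1 lay between 11.35 and 11.66 at rest and between 11.91 and 12.20 after the run.

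Rest replicate 3 lay within the range of the exhausted rats for 80 of the 134 falls and rest replicate 2 for 47. Rest replicate 4 did so for 21 falls and the other rested rats for 1 to 4, while over all genes each rested rat lay within that range for 51.3% to 66% of genes. Ampd3, the AMP deaminase known from erythrocytes, was at 9.97, 9.11, 6.51, 8.91, 9.93 and 10.17 at rest and at 6.27, 7.54, 5.50, 6.56, 6.15 and 6.0 after the run, a change of -2.76 ± 0.47 (6.79-fold lower, limma adjusted p = 0.000669). Gpnmb, a transmembrane glycoprotein of lysosome-rich cells, was at 9.51, 8.73, 6.30, 10.84, 9.71 and 10.15 at rest and at 6.17, 6.86, 6.17, 6.66, 6.27 and 6.57 after the run. It fell by 2.76 ± 0.49 (6.76-fold lower, limma adjusted p = 0.000858). Th, encoding tyrosine hydroxylase of catecholamine synthesis, was at 6.75, 6.93, 3.64, 6.93, 9.17 and 5.96 at rest and at 3.64, 4.66, 3.15, 4.55, 3.92 and 3.69 after the run. In each of these genes rest replicate 3 was the only rested rat within the exhausted range. Th fell by 2.63 ± 0.43 (6.18-fold lower, limma adjusted p = 0.000643).

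Rrad, a small GTPase that inhibits calcium channels, was at 7.90, 6.68, 4.53, 7.52, 7.97 and 8.59 at rest and at 4.95, 4.56, 4.27, 5.02, 4.82 and 4.16 after the run (change -2.57 ± 0.46, limma adjusted p = 0.000858). Tubb6, a beta tubulin, was at 9.54, 8.84, 6.25, 9.12, 9.33 and 9.44 at rest and at 6.34, 6.77, 5.29, 6.57, 6.84 and 6.68 after the run (change -2.34 ± 0.46, adjusted p = 0.00274). Myog was at 9.11, 8.11, 6.37, 8.37, 8.81 and 8.92 at rest and at 5.76, 6.90, 6.18, 5.57, 5.59 and 6.69 after the run (change -2.17 ± 0.36, adjusted p = 0.000643). The same rested rat was low in all of them. Ppp1r14c, an inhibitor of protein phosphatase 1, had a wider spread, with 7.41, 6.55, 3.98, 5.18, 7.89 and 7.06 at rest and 4.22, 5.63, 4.08, 5.55, 3.27 and 3.91 after the run. It fell by 1.90 ± 0.44 (adjusted p = 0.011), a call lost without rest replicate 5. Mt2A, a metallothionein that binds zinc and copper, was at 6.08, 7.16, 4.41, 6.12, 7.49 and 7.79 at rest and at 4.01, 5.21, 3.35, 5.88, 4.87 and 4.38 after the run. It fell by 1.89 ± 0.39 (3.71-fold lower, limma adjusted p = 0.00355).

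**Figure D2:**
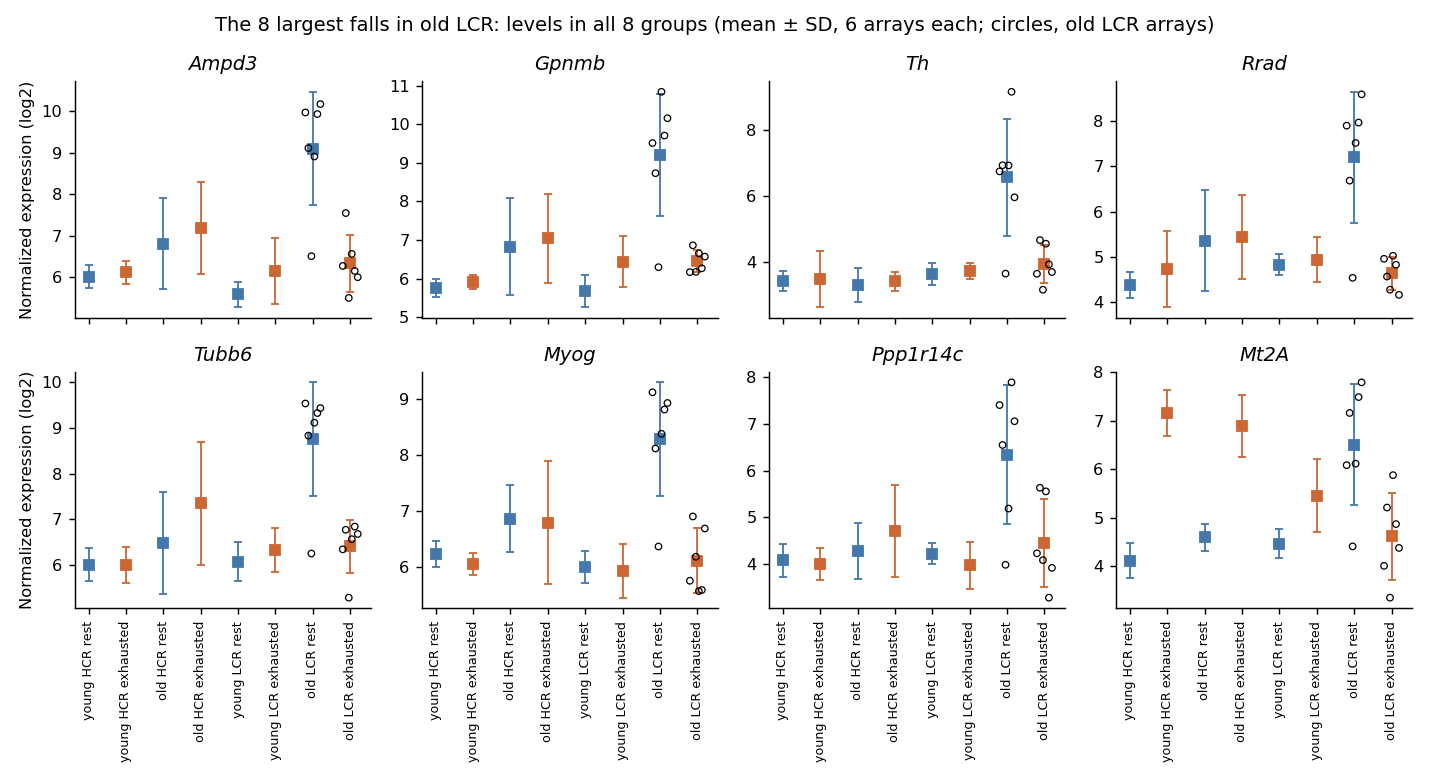
Expression (log2) of the 8 genes with the largest falls in old LCR muscle, in all 8 groups of the study. Squares and bars are the mean and SD of 6 arrays, blue at rest and orange exhausted, and open circles are single old LCR arrays. In 7 of the 8 genes the old LCR rest group has the highest mean, while Mt2A was higher in exhausted HCR rats, and in all 8 rest replicate 3 lies among the exhausted values. Outside old LCR at rest, the Th means are dim and lie below the overall median value.

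Promoters of Myog and Mt2A are shown as the 2 largest falls in the junction and denervation lists below with a RefSeq promoter entry. Ampd3 and Rrad had none. The elements marked were chosen for each gene. They are the E-box CANNTG, bound by myogenic factors, and TGCNCNC, a loosened form of the metal response core bound by Mtf1. The usual core has a purine in place of the first N. Capitals mark the E-boxes in Myog and the matches to TGCNCNC in Mt2A, on either strand, over the same RefSeq window.
Myog, GRCr8 chr13:48297226-48297525, plus strand: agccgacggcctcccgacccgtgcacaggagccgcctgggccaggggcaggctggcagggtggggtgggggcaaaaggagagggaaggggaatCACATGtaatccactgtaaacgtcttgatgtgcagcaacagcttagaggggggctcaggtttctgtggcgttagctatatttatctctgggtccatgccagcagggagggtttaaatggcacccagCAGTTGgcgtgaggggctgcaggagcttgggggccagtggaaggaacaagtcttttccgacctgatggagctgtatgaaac
Mt2A, GRCr8 chr19:10838659-10838958, minus strand: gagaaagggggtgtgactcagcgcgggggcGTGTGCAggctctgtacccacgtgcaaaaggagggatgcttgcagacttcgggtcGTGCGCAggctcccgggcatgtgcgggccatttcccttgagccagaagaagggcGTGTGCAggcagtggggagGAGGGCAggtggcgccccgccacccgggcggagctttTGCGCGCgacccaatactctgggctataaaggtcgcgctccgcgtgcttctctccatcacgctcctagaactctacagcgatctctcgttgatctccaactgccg
Myog held 2 E-boxes, at -157 and -31 from the start. The match at -92 in Mt2A, TGCCCTC on the other strand, lacks that purine and overlaps an E-box at -87 that is not in capitals. Mt2A held 5 matches to TGCNCNC, at -220, -165, -111, -92 and -55. At least 5, a cut-off taken from Mt2A itself, were held by 0.669% of the 33469 promoters. A single match to TGCNCNC is common, in 49.6% of all promoters and 60.8% of the 120 for falls, as is the E-box, in 72.1% and 61.7%. Neither share says which factor was bound.

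The other named falls ranged from 1.84 to 0.90 on the log2 scale. Emb, a partner of monocarboxylate transporters, fell by 1.81 ± 0.42, the lipase gene Abhd2 by 1.33 ± 0.24, Cidea, a lipid droplet protein, by 1.06 ± 0.29, Plin2, which coats lipid droplets, by 1.01 ± 0.17 and the acyl-CoA synthetase gene Acsl4 by 0.92 ± 0.17. The 7 tested adipocyte markers had a median change of 0.03, with list means of 5.08 to 5.71 at rest and 4.95 to 5.81 after the run. Plin2 was between 8.90 and 10.07 at rest and between 8.02 and 9.08 after the run. Eda2r, a receptor of the TNF family, fell by 1.64 ± 0.41, the nectin-like Pvr by 1.10 ± 0.20, Sirpa by 1.03 ± 0.23, the mechanically gated channel gene Piezo1 by 0.96 ± 0.22 and Relt, another TNF receptor family member, by 0.90 ± 0.15. Prrg4 (-1.84), Sdr9c7 (-1.54), Col19a1 (-1.13), Adam19 (-1.01) and the phosphatase regulator gene Ppp1r27 (-0.96) were also among the 25. Gadd45a and Chrna1, given below with the denervation genes, complete them. The calls of Cidea, Col19a1 and Eda2r were lost without any of 8, 7 and 5 single arrays, those of Prrg4, Sdr9c7 and Adam19 without either of 2 and those of Emb and Piezo1 without rest replicate 5.

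Rest replicate 3 was the lowest rested rat for 82 of the 134 falls (61.2%) and for 17.6% of all genes. Its mean over the 134 genes was 0.138 above the exhausted mean, against 0.536, 0.627, 0.957, 0.968 and 1.06 for rest replicates 2, 4, 1, 6 and 5. The exhausted arrays shared more evenly in the falls, with means of -0.846 to -0.569 against the rest mean. For the 70 rises the exhausted arrays lay between 0.445 and 0.702 above the rest mean. The rest arrays were there at -0.721 to -0.456 against the exhausted mean, also more even than in the falls. Since the 204 genes were called on these same arrays, the means describe how the arrays share in the calls and test nothing.

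**Figure D3:**
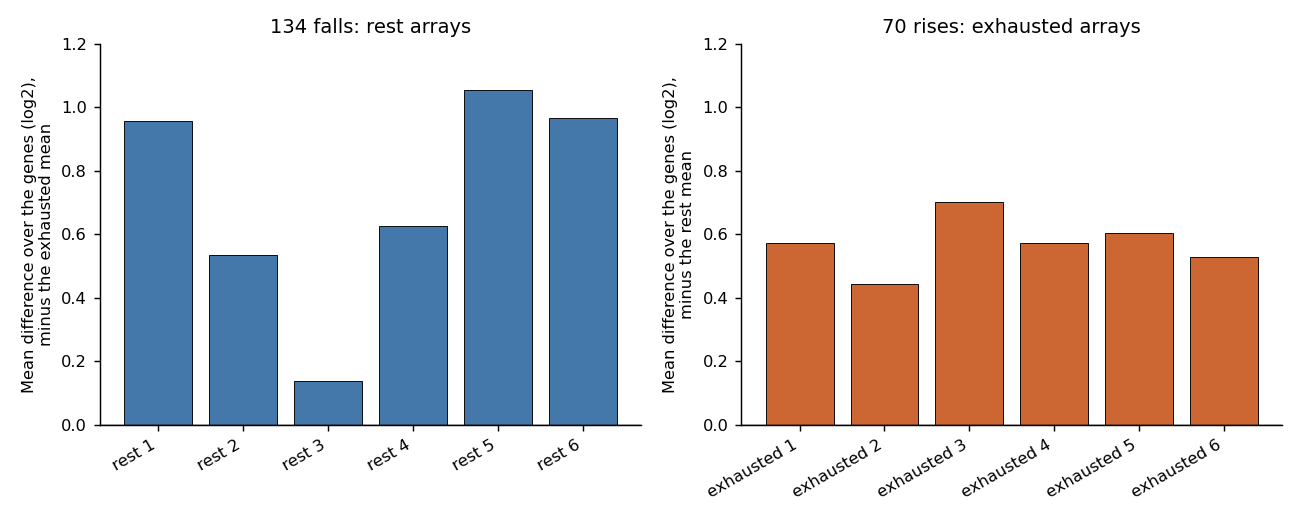
Left, mean over the 134 falls of each old LCR rest array minus the exhausted mean (log2). Right, mean over the 70 rises of each exhausted array minus the rest mean. On the left, rest replicate 3 stands at 0.138 and the other 5 rest arrays at 0.536 to 1.06. On the right, the exhausted arrays stand at 0.445 to 0.702. The panels show different arrays and are not a like comparison.

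In many of these genes the old LCR rats at rest stood at the end of the range. Their group had the highest mean of the 8 groups in 100 of the 134 falls (74.6%; 10.2% of all genes), and the lowest in 52 of the 70 rises (74.3%; 18.9% of all genes). The choice of genes by a difference from these rest arrays favours both counts. Myog was at 8.28 ± 1.01 (SD, n = 6) in old LCR at rest and at 6.12 ± 0.57 after the run. In the other 6 groups its means were between 5.93 and 6.86. Th was at 6.56 ± 1.79 and 3.93 ± 0.58, with other group means of 3.30 to 3.71. All Th means except that of old LCR at rest lay below the overall median value, which 6 or more arrays had to exceed. The old LCR arrays alone met this rule, so it favoured the place of Th at the end of the range. Outside old LCR at rest, the means of Sdr9c7 and Col19a1 were also below that value. Those of Ppp1r14c were too, except 4.69 in exhausted old HCR. The spread at rest was the larger one for 112 of the 134 falls, 52 of the 70 rises and 64.6% of all genes, and the median SD of the falls was 0.314 at rest and 0.193 after the run.

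Of 22 tested genes known from denervated or unused muscle, 10 fell and 0 rose (1.4% of all genes fell), with a median change of -0.88. The list was drawn up with earlier results of these arrays known, so the count is not independent of them. Besides Ampd3, Rrad, Myog and Mt2A, Gadd45a, a growth arrest gene raised by denervation, fell by 1.76 ± 0.38. Chrna1, the acetylcholine receptor alpha subunit, fell by 1.64 ± 0.39 (a call lost without exhausted replicate 1 or rest replicate 5), Hdac4, a deacetylase that carries the denervation signal, by 0.90 ± 0.17 and Kcnn3, an SK potassium channel of denervated muscle, by 0.80 ± 0.17. Tnfrsf12a, the TWEAK receptor, fell by 0.76 ± 0.22 (lost without any of 8 arrays) and Trim63, the ubiquitin ligase MuRF1, by 0.67 ± 0.12. Hdac4 was at 8.71, 8.63, 7.54, 7.85, 8.61 and 8.41 at rest and at 7.45, 7.49, 7.09, 7.49, 7.34 and 7.49 after the run. Even rest replicate 3 lay above every exhausted rat there. The 12 other members had values below 0 that did not pass, among them Ankrd1 at -2.05 (adjusted p = 0.128), Sln, an inhibitor of the calcium pump, at -1.87 (adjusted p = 0.0507), the fetal receptor subunit gene Chrng at -0.93 and Fbxo32, the ligase atrogin-1, at -0.33.

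The mean level over the 22 members was 9.19, 8.37, 7.60, 8.11, 9.33 and 9.28 in rest replicates 1 to 6 and 7.29, 7.80, 7.05, 7.89, 7.41 and 7.62 in exhausted replicates 1 to 6. Rest replicates 1, 5 and 6 were the highest and replicate 3 lay within the exhausted range. In the other 6 groups the mean was between 7.43 and 7.92. The median change of these members was 0.13 in young LCR, 0.18 in old HCR and -0.01 in young HCR. Rest replicates 1 and 6 were also the arrays with high tendon markers, whose part in the result was not tested. Without these 2 arrays 5 members fell, at a median of -0.68, and without rest replicates 2 and 3 there were 17, at -1.15. Single arrays left out gave 8 to 14 falls. With only the 12 arrays in the fit 0 members passed, although 10 of 22 did in the model of 48 arrays (over all genes the 12-array fit called 11, and in the model of 48 arrays 1408 genes had an unadjusted p under 0.05).

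Neighbouring lists had few calls beyond the shared members (1.4% of all genes fell). Of 13 genes of the acetylcholine receptor and neuromuscular junction Chrna1 alone fell, and the median was -0.13. Chrne, the adult receptor subunit, was at -0.31, Lrp4, a receptor for agrin, at -0.24 and Rapsn, which clusters receptors, at 0.02. Of 14 developmental and regenerating muscle genes 2 fell, Myog and Tnfrsf12a, while Myod1 was at -0.00 and Myf5 at 0.06. None of the 6 tested satellite cell markers or 7 Schwann cell and nerve markers passed, with medians of -0.01 and 0.05. Of 8 catecholamine genes Th alone fell, and of 14 purine nucleotide and phosphocreatine genes Ampd3 alone, whereas the muscle isoform Ampd1 was at 0.13.

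Few degradation genes passed, and those that did fell (1.4% of all genes fell). Of 24 atrophy ligase and autophagy genes 2 fell, Trim63 and the lysosomal protease gene Ctsl. Trim63 was at 10.86, 10.76, 9.91, 10.68, 10.72 and 10.81 at rest and between 9.81 and 10.06 after the run, so that rest replicate 3 was again the only rested rat within the exhausted range. Ctsl fell by 0.80 ± 0.15 (adjusted p = 0.00108). Of 28 proteasome subunits 1 fell, Psmd1 at -0.28 ± 0.06, and 26 had values below 0, with a median of -0.12. Of 21 lysosomal genes 2 fell, Gpnmb and Ctsl, at a median of -0.10. Gpnmb is also made by macrophages, and the 10 tested macrophage markers had a median of 0.09, 0 past the threshold and list means of 5.10 to 5.84 at rest and 5.41 to 5.88 after the run.

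Genes of inflammatory signalling and stress defence included falls and no rise. Of 24 cytokine, myokine and inflammatory genes 5 fell and 0 rose, where 1.4% of all genes fell and 0.732% rose: Relt, Tnfrsf12a, the NF-κB subunit genes Nfkb2 (-0.74 ± 0.18) and Relb (-0.56 ± 0.16), and the myokine gene Metrnl (-0.36 ± 0.10). Calls were lost without any of 4 arrays for Nfkb2, 6 for Metrnl and 9 for Relb. Metrnl showed no overlap, with 5.84 to 6.18 at rest and 5.25 to 5.83 after the run. Of 20 oxidative stress genes 2 fell, thioredoxin (Txn1) at -0.58 ± 0.12 and Nfe2l2, the transcription factor NRF2, at -0.26 ± 0.07, with a median of -0.17. Of 9 p53 and growth arrest genes Gadd45a alone fell. Tp53inp1, a p53 target outside the list, was at 9.28, 9.18, 8.71, 9.0, 9.07 and 9.32 at rest and at 8.45, 8.25, 8.39, 8.57, 8.64 and 8.34 after the run. These groups did not overlap, and with a change of -0.66 ± 0.13 (adjusted p = 0.00281) it was, with Tmem64, 1 of the 2 falls of the 12-array fit. Of 22 heat shock proteins and cochaperones 1 fell, Hspb8 at -0.54 ± 0.15, while the inducible Dnajb1 and Hspa1b were at 0.61 and 0.56, neither past the threshold. Calls were lost without any of 8 arrays for Nfe2l2 and 9 for Hspb8.

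Hormone and clock lists showed few calls (0.732% of all genes rose and 1.4% fell). Of 17 glucocorticoid and FoxO target genes Klf15, a regulator of amino acid use, rose by 0.47 ± 0.10 without overlap of the groups, and Mt2A and Trim63 fell. Fkbp5 was at 0.31, Per1 at 0.42, Ddit4 at 0.14 and Pdk4 at -0.19. The list median was 0.11, compared with 0.30 in young LCR, 0.30 in old HCR and 0.95 in young HCR. None of 11 clock genes and 1 of 17 PPAR and fasting genes (Plin2) passed.

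Few genes of energy metabolism passed (0.732% of all genes rose), and the respiratory chain had small values of mostly one sign. Of 28 complex I subunits 1 rose, Ndufa6 at 0.48 ± 0.11 (adjusted p = 0.011, a call lost without rest replicate 5), and 27 had values above 0, with a median of 0.14. Of 31 subunits of complexes II to V 0 passed, 27 were above 0 and the median was 0.12. The list means of the arrays overlapped in both lists. They were 9.522 to 9.904 at rest and 9.755 to 10.002 after the run for complex I. For complexes II to V they were 9.654 to 9.962 and 9.772 to 10.027. None of 16 citric acid cycle, 23 fatty acid and 18 glycolytic genes passed, with medians of -0.01, -0.03 and 0.06. The 7 fast fibre genes were all above 0, between 0.03 and 0.14, and 0 passed; this median of 0.11 was 0.06 after a further quantile normalization. Slow fibre genes were uneven: Myh7, the slow myosin heavy chain, was at 1.31 (adjusted p = 0.196) and Tnnt1 at 1.05 (adjusted p = 0.209). Their spread at rest was wide, with list means from 7.39 to 9.50 at rest and from 8.49 to 9.41 after the run. None of 26 extracellular matrix genes passed (median -0.01), and 1 of 30 ribosomal protein genes did, Rpl3 at -0.67 ± 0.18, a call lost without any of 7 arrays.

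**Figure D4:**
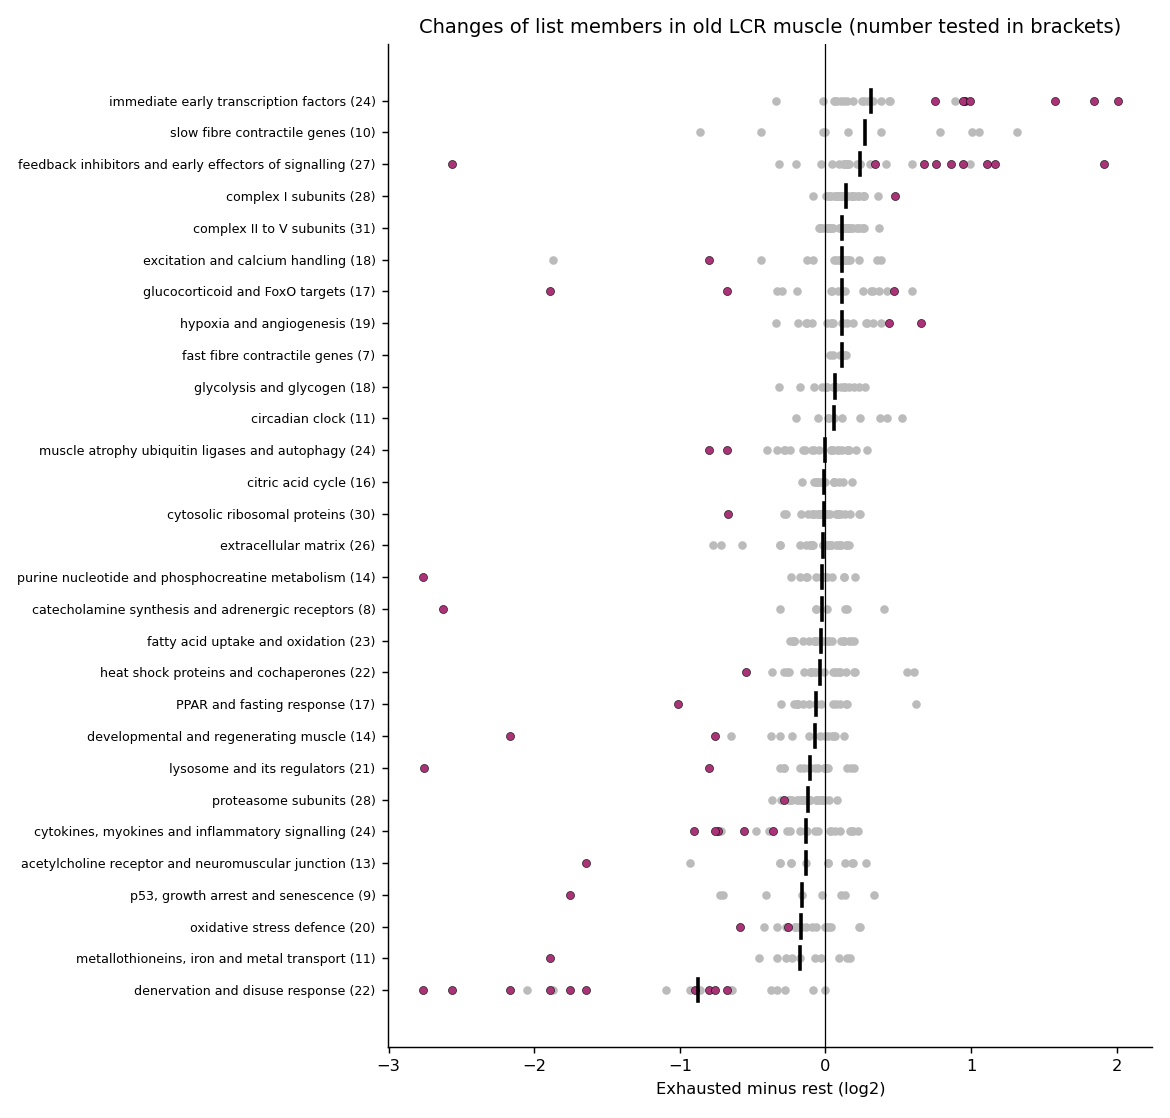
Changes (exhausted minus rest, log2) of the tested members of 29 gene lists in old LCR muscle, ordered by list median (black bar). Dark points are genes past the threshold of 0.05 and grey points the others. The denervation and disuse list has its median at -0.88, and the other medians lie between -0.17 and 0.31.

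The response of old LCR rats was then set against that of young LCR and of old HCR rats, as a difference of differences in the same model. Both tests use the old LCR arrays and are therefore not independent. The response differed from that of young LCR for 39 genes (0.408%), 11 higher (0.115%) and 28 lower (0.293%) in old LCR. It differed from that of old HCR for 152 genes (1.59%), 74 higher (0.774%) and 78 lower (0.816%). Further scaling moved this split to 58 and 123 (quantile normalization) or 46 and 70 (median centring). The split was 38 and 73 without 3 arrays that stood apart, old LCR rest replicate 2 and replicate 1 of both exhausted HCR groups. Single old LCR arrays left out gave 11 to 145 genes for young LCR (18 and 15 for exhausted replicates 1 and 3 left out, and 11, 145, 63, 13 and 15 for rest replicates 1, 3, 4, 5 and 6). For old HCR they gave 76 to 340 (101, 87 and 97 for exhausted replicates 1, 3 and 5, and 340, 76 and 77 for rest replicates 3, 5 and 6). Without rest replicates 1 and 6 the counts were 1 and 56, without rest replicates 2 and 3 they were 212 and 320, and with only the arrays of the groups compared 2 and 32.

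Early response genes differed from old HCR in both directions, more often with a lower response in old LCR. Of the 24 immediate early factors 1 was higher and 4 were lower, and of the 27 feedback genes 2 were higher and 5 lower. Over all genes the shares were 0.774% higher and 0.816% lower. Egr1 rose by 2.10 in young LCR and was at -0.07 in old HCR, where its response was 2.07 lower than in old LCR (adjusted p = 0.039). Fos was at 2.31 in young LCR and at -0.15 in old HCR, with a difference of 2.00 that did not pass (adjusted p = 0.0819). In old HCR the Fos level at rest was already 8.10 ± 1.33 (SD, n = 6), against 6.29 ± 0.51 in old LCR. Egr1 at rest was likewise at 8.56 ± 0.61 in old HCR and at 7.28 ± 0.74 in old LCR. Ptgs2 went the other way, with 0.76 in old LCR and 1.89 in old HCR (difference -1.13, adjusted p = 0.0304). The 1.91 of Apold1 in old LCR compared with 2.12 in young LCR and 1.76 in old HCR, and neither difference passed (-0.20, adjusted p = 0.948, and 0.15, adjusted p = 0.92). Trib1 and Lmod1 rose in old LCR and were at -0.26 and -0.02 in old HCR (differences 0.93 and 0.85, adjusted p = 0.0351 and 0.0183).

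Several genes that moved in old HCR muscle had values near 0 in old LCR. Stc1, a glycoprotein hormone gene, rose by 2.54 in old HCR and was at 0.33 ± 0.28 in old LCR (difference -2.21, adjusted p = 0.00116). Adamts9 rose by 1.63 in old HCR and was at -0.19 in old LCR, the Notch target Hes1 by 1.76 against 0.29, the arrestin-like Arrdc3 by 1.42 against -0.04 and the kinase gene Map3k6 by 1.75 against 0.29. Among genes that fell in old HCR, Aplnr, the apelin receptor, was at -1.49 there and at 0.04 in old LCR (difference 1.53, adjusted p = 0.000632). Lpar6, a lysophosphatidic acid receptor, was at -1.40 and -0.15, Rgs4, a G-protein regulator, at -1.24 and -0.03, the ligase gene Rnf125 at -0.79 and 0.08 and the ephrin gene Efna1 at -0.83 and 0.06. For Lpar6 the old LCR arrays ran from 7.53 to 8.19 at rest and from 7.47 to 8.03 after the run, so the groups coincided.

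Other genes moved in opposite directions. Mt2A rose by 2.29 in old HCR and fell by 1.89 in old LCR, a difference of -4.18 (adjusted p = 1.14e-05). It was at 0.99 in young LCR, not past the threshold (difference -2.88, adjusted p = 0.0101). Its level at rest was 6.51 in old LCR, 4.59 in old HCR and 4.47 in young LCR, and after the run 4.62, 6.89 and 5.46. Pvr rose by 0.83 in old HCR and fell in old LCR (difference -1.93, adjusted p = 8.11e-05), as did Tgif1, a corepressor of TGF-beta signalling, at 1.0 and -0.70 (difference -1.70, adjusted p = 1.75e-05).

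**Figure D5:**
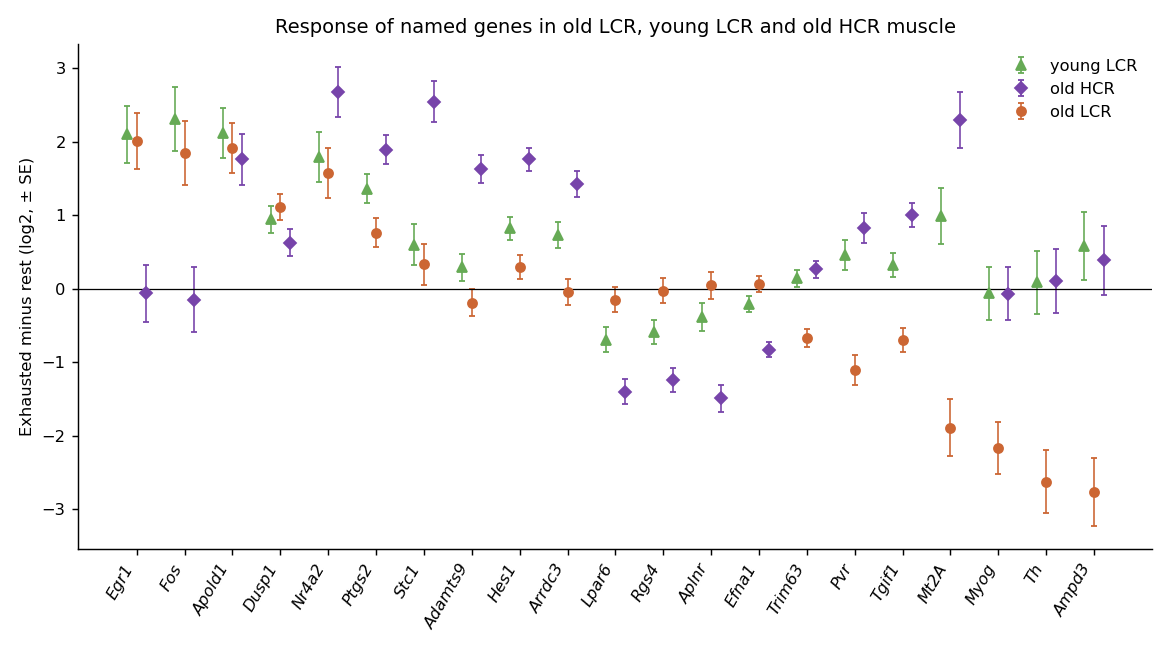
Exhausted minus rest (log2, ± SE of the model, 6 arrays per group) of 21 named genes in young LCR (triangles), old LCR (circles) and old HCR (diamonds). Egr1 and Fos rose in both LCR ages and were at -0.07 and -0.15 in old HCR, while Mt2A was at 2.29 in old HCR and at -1.89 in old LCR.

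Ampd3, Gpnmb and Myog fell in old LCR and did not pass in the other 3 strata. Ampd3 was at 0.58 in young LCR, 0.38 in old HCR and 0.10 in young HCR, Gpnmb at 0.76, 0.22 and 0.15, and Myog at -0.07, -0.07 and -0.18, none past the threshold. The differences from young LCR and old HCR were -3.34 and -3.15 for Ampd3 (adjusted p = 0.0104 and 0.00754), -3.52 and -2.98 for Gpnmb, and -2.10 for Myog in both. Of the 134 falls, 0 also fell in young LCR (0.146% of genes fell there), 2 in old HCR (1.71%) and 4 in young HCR (3.86%). Of the 70 rises, 16 also rose in young LCR (0.795% of genes rose there), 14 in old HCR (1.44%) and 25 in young HCR (4.82%). In all, 0.942% of genes changed in young LCR, 3.15% in old HCR and 8.68% in young HCR. The median change of the falls was 0.01 in young LCR, -0.01 in old HCR and -0.08 in young HCR, and that of the rises 0.12, 0.03 and 0.17, against -0.01, -0.05 and -0.03 over all genes.

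The genes with the smallest p for the difference from young LCR included some outside the largest changes. Slc43a2, an amino acid transporter gene, fell by 0.73 ± 0.13 in old LCR and was at 0.20 in young LCR (difference -0.93, adjusted p = 0.0108). Zfp36l1, a relative of Zfp36, was at -0.32 in old LCR and rose by 0.50 in young LCR (difference -0.82). On the higher side Tekt1 led (1.60, adjusted p = 0.0101), with -0.60 in young LCR. The transferrin receptor gene Tfrc fell by 0.75 in young LCR and was at 0.15 in old LCR (difference 0.90), and Invs, the cilium gene inversin, rose by 0.44 ± 0.11 in old LCR and was at -0.18 in young LCR (difference 0.62). The endothelial receptor Tie1 and its family's ligand Angpt1 were at 0.23 and 0.28 in old LCR and at -0.38 and -0.25 in young LCR, none past the threshold by itself, with differences of 0.61 and 0.54 that were. Leaving out single old LCR arrays lost the call of the difference in 11 of 12 cases for Tfrc, 10 for Invs, 8 for Tie1 and 7 for Angpt1, and in 0 for Tekt1, Slc43a2 and Zfp36l1.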

How the data were processed

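The deposited series table of 48 Affymetrix Rat Gene ST 2.1 arrays was used, which holds the authors' log2 expression values, 1 per probe set and array. Per the labels' protocols, RNA was isolated with Trizol, DNase and RNeasy columns, and 400 ng were labelled. The series' design text names Expression Console, while per the submitters' processing notes oligo and RMA were used (no versions). It stays unstated which program wrote the deposited log2 values. RMA removes background, brings the arrays to a common distribution and summarises probes per set, so that a shift of most genes at a time would not show. Column medians ran from 4.47 to 4.59. Precision depends on the number of arrays and on signal over background.

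Of 36685 probe sets the 14824 that name 1 gene in the platform table were used (829 name several and 21032 none), and 14670 of these matched current rat records by Entrez identifier. The brightest probe set stood for a gene. Genes were tested, 9558 of 14557, if 6 or more arrays exceeded the overall median value of 4.54. A limma 3.58.1 model (R 4.3.3) with a mean for each of 8 groups, default moderation, 40 residual and 3.77 prior degrees of freedom gave two-sided tests with Benjamini-Hochberg adjustment over all genes tested and a threshold of 0.05. Errors are standard errors (SE) of this model or standard deviations (SD) over arrays.

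Named genes are the 25 largest rises and falls past the threshold, up to 10 per direction with the smallest p for each response difference, and members of 29 gene lists, with all array values for the 8 largest per direction and a few others. Members, lists and tests were chosen with earlier results of these data known, and lists are described by counts and medians beside all genes, without a test. The procedure was tested on simulated data. Alternatives were scaling, filter, probe set summary, array weights, moderation, arrays left out and a fit of only the groups compared. Promoters are from RefSeq's GRCr8 assembly, with 8349 of the genes tested found, and were searched with Python 3.11.15.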

Additional observations from a re-analysis of the deposited data

Results flagged for a closer look

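Single arrays stood far from the other 5 of their group in 10 of 188 sets of 6 values, a rule that chance meets in about 1 of 20 groups. Rest replicate 3 was the distant array for Ampd3 (6.51), Tubb6 (6.25), Myog (6.37) and Ppp1r27 (9.30), low in each, and for Sema7a (7.95), where it was high. Exhausted replicate 5 was low for Sema7a (7.75) and exhausted replicate 3 low for Tubb6 (5.29). Rest replicate 5 was high for Klf4 (7.29), rest replicate 6 for the mean of adipocyte markers (5.71) and rest replicate 2 for the mean of liver plasma protein markers (7.29).

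The response of old LCR differed from that of young LCR, by the test of the difference itself, for 20 named genes. It was higher for Tekt1 by 1.60, Tfrc by 0.901, Sema7a by 0.827, the zinc finger gene Zfp790 by 0.725, Plcl2 by 0.63, Invs by 0.62, Tie1 by 0.611, Mterf1-ps1 by 0.608, Angpt1 by 0.538 and the glutathione cycle gene Ggct by 0.44. Leaving out 1 of the 12 old LCR arrays at a time lost the call in 11 cases for Tfrc, 10 for Invs, 9 for Ggct, 8 for Sema7a, Zfp790 and Tie1, 7 for Angpt1, 6 for Plcl2, 1 for Mterf1-ps1 and 0 for Tekt1. The difference was negative for Gpnmb (-3.52), Ampd3 (-3.34), Mt2A (-2.88), Pvr (-1.56), Relt (-1.19), Ctsl (-1.07), Slc43a2 (-0.927), Tp53inp1 (-0.869), Zfp36l1 (-0.818) and Trim63 (-0.812). Of these, Tp53inp1 lost its call without rest replicate 1 or 6 and Trim63 without rest replicate 1.

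Against old HCR, with the same old LCR arrays, 20 named genes differed, and leaving out any 1 old LCR array lost 0 of these calls. Old HCR arrays were not left out singly. Several of these genes were near 0 in old LCR and moved in old HCR, so this says little about how firm their calls are. With only the arrays of the groups compared, Itpkb lost its call (limma adjusted p = 0.0764). The response was higher in old LCR for Aplnr by 1.53, Lpar6 by 1.25, Rgs4 by 1.22, Zc2hc1c by 0.895, Efna1 by 0.89, Rnf125 by 0.868, the kinase gene Itpkb by 0.791, the ubiquitin ligase gene Mylip by 0.71, Podxl2 by 0.691 and Zfp606 by 0.683. It was lower for Mt2A (-4.18), Stc1 (-2.21), Pvr (-1.93), Adamts9 (-1.82), Tgif1 (-1.70), Hes1 (-1.46), Arrdc3 (-1.46), Map3k6 (-1.45), the myristoyltransferase gene Nmt2 (-0.937) and Trim63 (-0.933).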

How the results depend on the processing

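The 204 genes of exhausted against rest became 331 with array quality weights, 383 without the 3 arrays of the series that stood apart (rest replicate 2 is 1 of them), 11 with only the arrays compared, and, as alternatives chosen after seeing the data, 44 (rest replicates 1 and 6 left out) and 495 (rest replicates 2 and 3 left out). Leaving out single arrays gave 102 to 361. The 39 genes that differed from young LCR became 59 after quantile normalization, 17 without a filter, 112 with weights, 74 without the 3 arrays, 1 and 212 without those pairs of rest arrays, 2 with only the arrays compared, and 11 to 145 without single arrays. The 152 that differed from old HCR became 65 without a filter, 56 and 320 without those pairs, 32 with only the arrays compared, and 76 to 340 without single old LCR arrays. Without the 3 arrays they became 111, 38 higher and 73 lower, of which 79 were among the 152. Besides rest replicate 2, the 3 arrays were replicate 1 of old HCR exhausted and replicate 1 of young HCR exhausted. The fits with only the arrays compared have fewer arrays for the spread, and they no longer share it with groups that vary less or more. The cause of these changes in the counts was not tested. Median centring moved the young LCR split from 11 higher and 28 lower to 4 and 29. Values near 0 turned sign without being called: Aplnr was at -0.026 with weights, -0.053 without the 3 arrays, -0.028 without rest replicates 2 and 3 and -0.053 to 0.13 without single arrays. Rgs4 was at 0.046 without rest replicates 2 and 3 and -0.14 to 0.056 without single arrays, Efna1 at -0.016 to 0.12 and Arrdc3 at -0.11 to 0.056. Over 134 gene results and all alternatives, 2647 values kept direction and side of the threshold, 455 lost the call, 11 gained it and 13 turned sign. Of 25 named falls 9 passed without rest replicates 1 and 6 and 0 with only the 12 arrays, and of 25 rises 11 and 8. No paired analysis was possible because the labels give animal numbers that are not shared between groups. Precision is limited by 6 arrays per group and, for dim genes such as Tekt1, or Th outside old LCR at rest, by background.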
